A study of Oryctolagus cuniculus with 57 samples.

Results

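Citrulline and arginine are made from glutamate and ornithine by a short chain of enzymes, and 8 genes of that chain were looked for on the arrays: ALDH18A1 and OAT, which make ornithine, NAGS, CPS1 and OTC, which make citrulline, ASS1 and ASL, which turn citrulline into arginine, and ARG2, which breaks arginine down again. The members were chosen by name, as genes of this pathway. A probe was found for 7 of the 8 genes (14 probes in all), and NAGS, whose product activates CPS1, had none and is not analysed here. The ASS1 probe had its name only from the study's lists of genes that differed with age in these data, so ASS1 entered through its change. These 7 genes were read among 7960 named genes with a probe above background, of 9577 named genes on the array. In suckling pigs and rats, enterocytes hold the whole chain and release arginine. After weaning, the gut of these species releases mainly citrulline, and the kidney completes the last steps with ASS1 and ASL.

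RNA came from whole ileal tissue of commercial PS Hyplus hybrid rabbits, males or females killed at 35 days of age, the time of weaning, or at 49 days, and each rabbit was hybridized to its own 1-colour array. In the FF group the nests had received feces of unrelated does, in the FFab group feces of unrelated does treated with tiamulin and tetracycline, and in the NF group no feces could be eaten. In all groups the mothers' own feces were taken out of the nest. Feces were given or withheld by nest, and as litter and sex were not given, each rabbit was treated as independent, so p-values may be too small if littermates were sampled. At day 35 there were 10 arrays of FF, 9 of NF and 10 of FFab, and at day 49 there were 9 of each, 56 in all. The study set a sample aside as an outlier, which its text does not name. It was taken here to be NF rabbit 78 of day 35, which was added back only as an alternative.

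The probes that carry the results are short stretches of the messenger RNA, 60 bases each, and they are shown because they are what was measured as each gene. Capitals in the ASS1 probe mark a stop codon: read from the first base, the only stop codon is the last triplet, so the probe lies at the end of the coding sequence. The ASL probe contained no stop codon in that reading. Neither was placed on the genome by the array files.
ASS1: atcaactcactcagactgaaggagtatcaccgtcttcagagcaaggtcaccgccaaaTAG
ASL: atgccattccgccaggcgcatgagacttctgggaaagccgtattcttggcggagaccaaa

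OTC was read by 3 probes on the X chromosome that overlap each other. They are therefore repeated readings of a single site and not separate evidence.

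OAT was read by 5 probes shifted against each other by single bases, with 56 bases common to all of them (capitals), of which the outermost pair is shown. CPS1 was read by 2 probes that adjoin on chromosome 7 (151519412 to 151528781 and 151528782 to 151529549, plus strand). Each of these covers far more genome than its own length, 9370 and 768 bases, so that each is read across introns. ARG2 (chromosome 20, 4603774 to 4607713, minus strand) and ALDH18A1 (chromosome 18, 44302708 to 44304038, minus strand) had 1 probe each, which also spanned introns. All 14 probes stood well above background on all 57 arrays. Over the 56 rabbits, the probes of a gene followed each other with Pearson r of 0.92 to 0.99 for OTC, 0.98 for CPS1 and 0.98 to 0.99 for OAT.
OAT, first: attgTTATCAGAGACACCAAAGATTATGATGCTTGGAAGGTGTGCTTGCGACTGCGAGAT
OAT, last: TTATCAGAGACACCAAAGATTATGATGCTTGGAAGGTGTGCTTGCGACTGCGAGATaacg

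ASS1 and ASL, the enzymes of the last steps, were lower at day 49 than at day 35, and they were the only members past the threshold in any comparison. To pass, a gene needed a log2 fold change (log2FC, day 49 minus day 35) beyond 0.5 in either direction and, in limma, a p under 0.05 after Benjamini-Hochberg adjustment over all 7960 genes. Averaged over the treatments, ASS1 fell by 0.66 ± 0.11 (SE) on the log2 scale, which is 1.58-fold (adjusted p = 5.63e-05). ASL changed by -0.43 ± 0.08 (1.35-fold lower, adjusted p = 2.86e-04) and stayed short of the minimum fold change. OTC, which makes the citrulline that ASS1 uses, changed the other way, by 0.29 ± 0.08 (1.23-fold higher, adjusted p = 0.00895), and was also short of it. ALDH18A1, OAT, CPS1 and ARG2 had adjusted p of 0.934, 0.207, 0.921 and 0.389. So 1 of 7 members passed, downward, where 1.08% of the 7960 genes fell and 2.37% rose. That member, ASS1, was named through the study's own lists of changed genes, so the counts that hold it are not independent of these data. At any fold change, 3 of 7 had an adjusted p under 0.05, against 13.5% of all genes. The median log2FC was -0.03 over the 7 members and -0.005 over all genes.

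**Figure D1:**
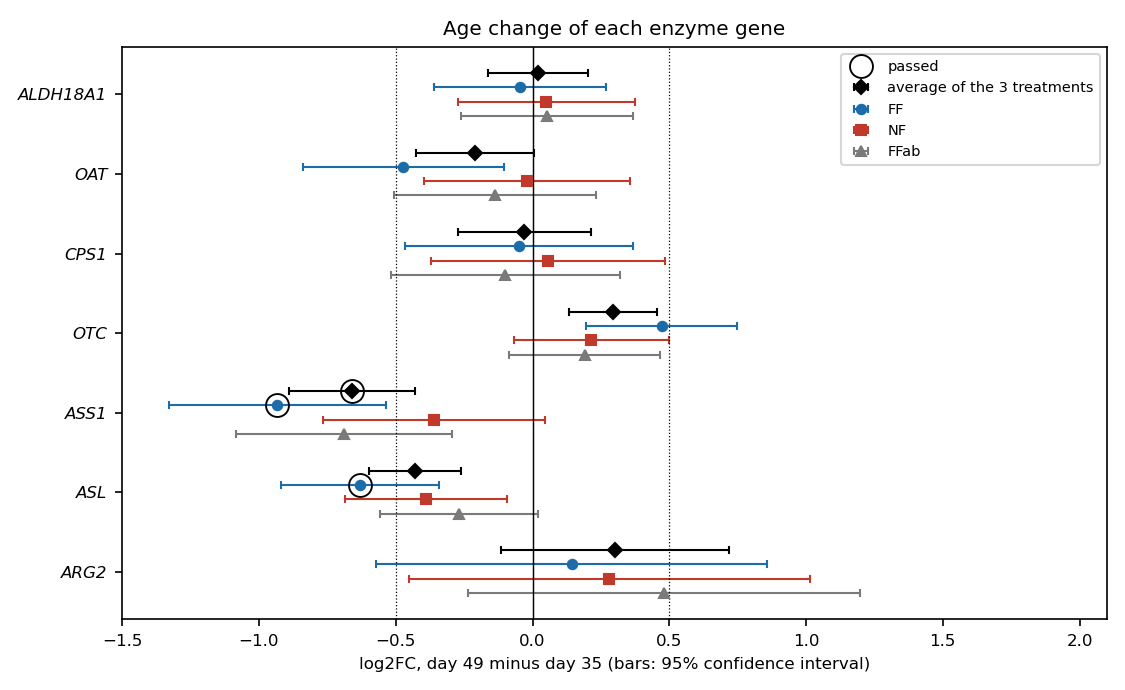
Age change of the 7 genes (x axis, log2FC, day 49 minus day 35), ordered from ornithine synthesis (top) to arginine breakdown (bottom), as the average of the treatments and in FF, NF and FFab. Bars are 95% confidence intervals, dotted lines mark log2FC of -0.5 and 0.5, and large circles mark the 3 values that passed, all of ASS1 and ASL.

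ASS1, argininosuccinate synthase, joins citrulline and aspartate. In the FF group at day 35 its normalized log2 signal was 11.90 in the lowest rabbit, 12.56 at the median and 13.07 in the highest (mean 12.51 ± 0.35 SD, n = 10). At day 49 it was 11.20, 11.61 and 12.10 (11.58 ± 0.25, n = 9). Of the 9 FF rabbits of day 49, 8 lay below every FF rabbit of day 35, and the ranges overlapped only through the ninth. The fall was 0.93 ± 0.20 on the log2 scale, 1.91-fold (adjusted p = 0.0018), and day 49 was lower than day 35 on 9 of 9 slides. In FFab the signal ranged from 11.50 through 12.28 to 12.99 at day 35 and from 11.14 through 11.54 to 12.47 at day 49, with a log2FC of -0.69 ± 0.20 that did not pass (unadjusted p = 0.00097, adjusted p = 0.203). Day 49 was lower on 8 of 9 slides there. In NF the signal ran from 11.33 through 12.02 to 12.67 at day 35 and from 11.02 through 11.66 to 13.10 at day 49, so that a rabbit of day 49 held the highest ASS1 signal of all 56. The NF log2FC was -0.36 ± 0.20 (adjusted p = 0.897), lower on 6 of 8 slides.

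ASL, argininosuccinate lyase, splits the product of ASS1 into arginine and fumarate. FF was the group in which it separated the ages: its signal ran from 10.49 through 10.81 to 11.54 at day 35 (mean 10.87 ± 0.29 SD, n = 10) and from 10.06 through 10.25 to 10.44 at day 49 (10.24 ± 0.13, n = 9). All 9 rabbits of day 49 lay below all 10 of day 35, as for 31 of the 7792 genes (0.398%) measured on every array. ASL fell by 0.63 ± 0.14 on the log2 scale, 1.55-fold (adjusted p = 0.00363), lower on 9 of 9 slides. In NF it ran from 10.39 through 10.80 to 11.41 at day 35 and from 9.96 through 10.37 to 11.66 at day 49 (log2FC -0.39 ± 0.15, adjusted p = 0.545). The highest value belonged to the same rabbit that was highest for ASS1. Without this rabbit, ASL in NF passed (log2FC -0.54, adjusted p = 0.0372), and ASS1 in NF stood at -0.53 without passing. This rabbit is among the 8 low in SLC10A2 described below, of which 0 are FF rabbits. Without all 8, ASL in NF stood at -0.41 ± 0.11 (adjusted p = 0.19) and did not pass. In FFab, ASL ran from 10.51 through 10.86 to 11.53 at day 35 and from 10.44 through 10.62 to 10.81 at day 49 (-0.27 ± 0.14, adjusted p = 0.635).

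In FF, therefore, 2 of 7 members passed, both downward, where 119 of 7960 genes fell (1.49%) and 224 rose (2.81%). ASS1 is again counted here, though its name came from the study's lists of changed genes. In NF and in FFab, 0 of 7 passed, as did 0.0377% and 0.0754% of all genes. At an unadjusted p under 0.05 there was 1 member in NF (ASL) and 1 in FFab (ASS1), where 6.04% and 8.44% of all genes lay there. Whole tissue was measured, so that fewer cells that make an enzyme and less of its RNA in each cell cannot be told apart.

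**Figure D2:**
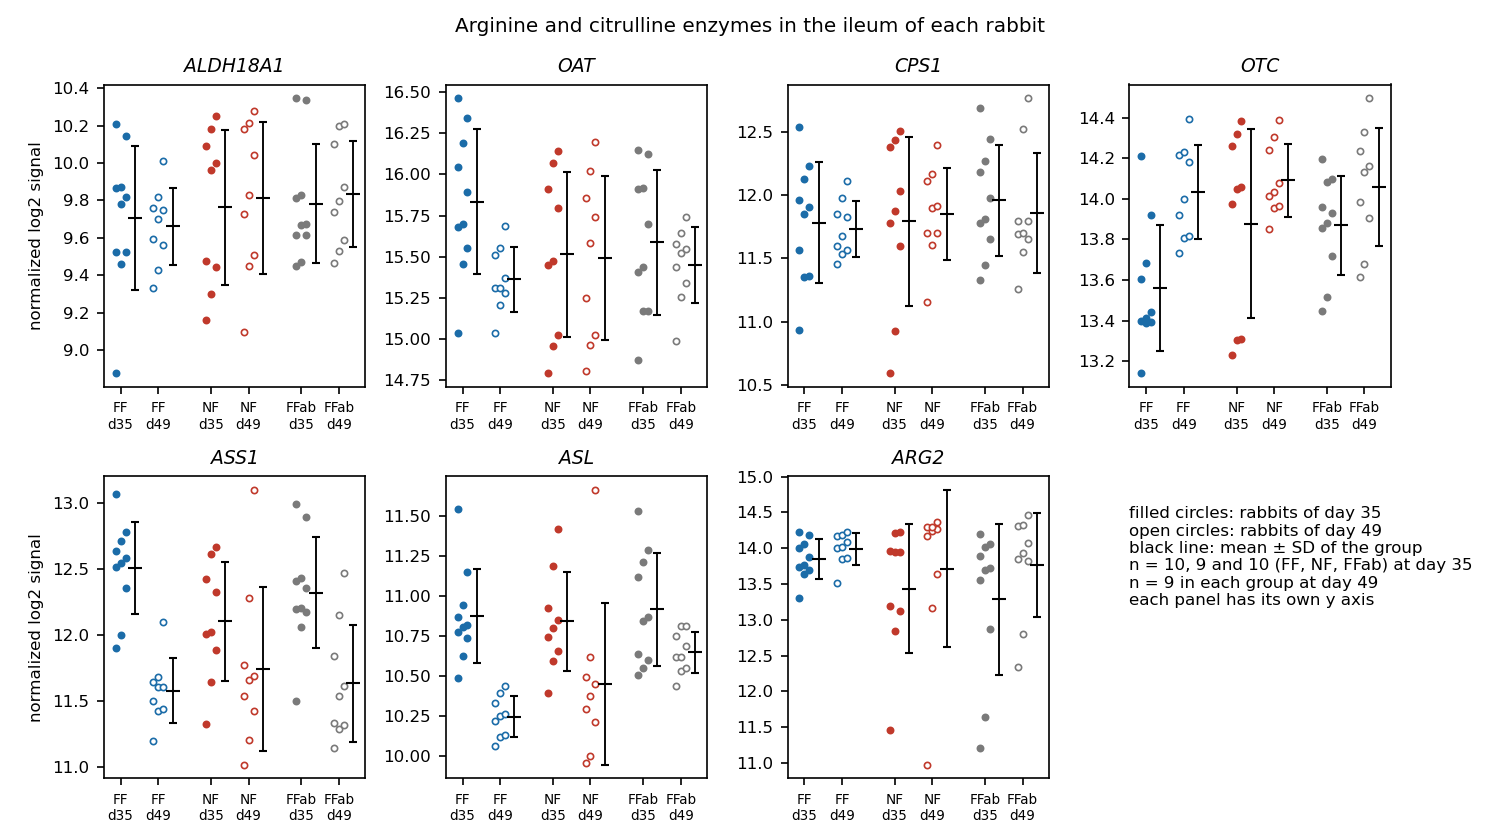
Normalized log2 signal (y axis, own scale in each panel) of the 7 genes in each of the 56 rabbits, by treatment and day (d35 filled, d49 open), with the mean ± SD of each group. In FF, ASL of day 49 lies wholly below day 35, while CPS1 and ALDH18A1 overlap in every treatment and ARG2 has rabbits below 13 only in NF and FFab.

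OTC, ornithine transcarbamylase, makes citrulline from ornithine and carbamoyl phosphate in mitochondria. In FF its signal ran from 13.14 through 13.43 to 14.21 at day 35 (mean 13.56 ± 0.31 SD) and from 13.73 through 14.00 to 14.39 at day 49 (14.03 ± 0.23). Of the 10 rabbits of day 35, 8 lay below every rabbit of day 49. The log2FC was 0.47 ± 0.14 (adjusted p = 0.0223), under the minimum of 0.5, and day 49 was higher on 8 of 9 slides. With it, 3 of 7 members had an adjusted p under 0.05 in FF at any fold change, against 7.89% of all genes. The call turns on the probe: in the fit over 31722 probes, of which 3.14% passed in FF, the 3 OTC probes gave 0.47, 0.51 and 0.47, and the one at 0.51 passed (adjusted p = 0.0288). The number of member probes past the threshold in FF, 3, became 2 with normexp, the median signal or the slide as a random block. In NF the log2FC was 0.22 ± 0.14 and in FFab 0.19 ± 0.14 (adjusted p = 0.971 and 0.796). The day 35 median of OTC was 13.43 in FF, 14.05 in NF and 13.91 in FFab, whereas the medians of day 49 lay between 14.00 and 14.13. FF minus NF at day 35 was -0.32 ± 0.14 and FF minus FFab -0.31 ± 0.13, with adjusted p of 0.538 and 0.733.

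CPS1, carbamoyl-phosphate synthetase, brings ammonia into the chain ahead of OTC. Its signal overlapped between the ages in every treatment, from 10.60 to 12.69 over the rabbits of day 35 and from 11.16 to 12.76 over those of day 49. The averaged log2FC was -0.03, with a 95% confidence interval of -0.27 to 0.21, and the second probe gave -0.02. ALDH18A1, which reduces glutamate toward ornithine and proline, had 0.02 (-0.16 to 0.20). For both, changes beyond 0.5 on the log2 scale lay outside these intervals.

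OAT, ornithine aminotransferase, links ornithine with the product of ALDH18A1. In FF its signal ran from 15.04 through 15.79 to 16.46 at day 35 and from 15.04 through 15.31 to 15.68 at day 49, and all 9 rabbits of day 49 lay below the median of day 35. The FF log2FC was -0.47 ± 0.18 (adjusted p = 0.108), and the 5 probes gave values from -0.44 to -0.47. It did not pass, but did so in the authors' deposited table of normalized values (-0.52, adjusted p = 0.0287) and with the slide as a fixed block (-0.50, adjusted p = 0.0343). In NF and FFab the log2FC was -0.02 ± 0.19 and -0.14 ± 0.18.

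ARG2, the mitochondrial arginase, splits arginine into ornithine and urea. Its averaged log2FC was 0.30 ± 0.21 (adjusted p = 0.389), with the widest error of the members. In FF the signal stayed between 13.30 and 14.22 at both ages. In NF it ran from 11.46 to 14.23 at day 35 and from 10.98 to 14.37 at day 49, and in FFab from 11.20 to 14.20 and from 12.34 to 14.47. Below 13 lay 2 of 9 NF and 3 of 10 FFab rabbits at day 35, 1 of 9 and 2 of 9 at day 49, and 0 of 19 FF rabbits. NF rabbit 78, set aside here, was lower still, at 9.55.

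These 8 rabbits were the same 8 whose signal of SLC10A2 lay under 10. The match depends on the line of 13 drawn for ARG2, where its values show no wide gap. The highest ARG2 value below that line was 12.87 and the lowest above it 13.12. SLC10A2 is the transporter by which the terminal ileum takes up bile acids, and it was looked at after the ARG2 values had been seen. The highest of the 8 was at 8.10 and the lowest of the other rabbits at 10.35, and 5 of the 56 arrays were not well above background for it. Over the 56 rabbits, ARG2 followed SLC10A2 with Pearson r of 0.88 (Spearman rho 0.69, and r of 0.84 without the 2 rabbits farthest from the ARG2 median). Other genes of bile acid uptake in the ileum had r of 0.85 (FABP6, the bile acid carrier inside the cell) and 0.82 (SLC51A and SLC51B, the export pair). The values of both genes in a rabbit share its array and its piece of tissue, and r is given as a description. FABP6 had a median of 19.19 and a highest value of 19.29, at the top of its scale, though 0 of 56 arrays were marked as saturated for it. The position along the ileum from which each piece came is not given in the sources used here, and its part in these values and in the comparisons with NF and FFab was not tested. Without these 8 rabbits, which leave FF whole, ARG2 had a log2FC of 0.21 ± 0.09 (adjusted p = 0.14), ASS1 of -0.70 ± 0.12 (adjusted p = 4.77e-05) and ASL of -0.40 ± 0.06 (adjusted p = 2.99e-05). By treatment, ASL in FFab then stood at -0.15 ± 0.12 in place of -0.27, and OTC in NF at 0.36 ± 0.15 in place of 0.22, neither past the threshold.

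**Figure D3:**
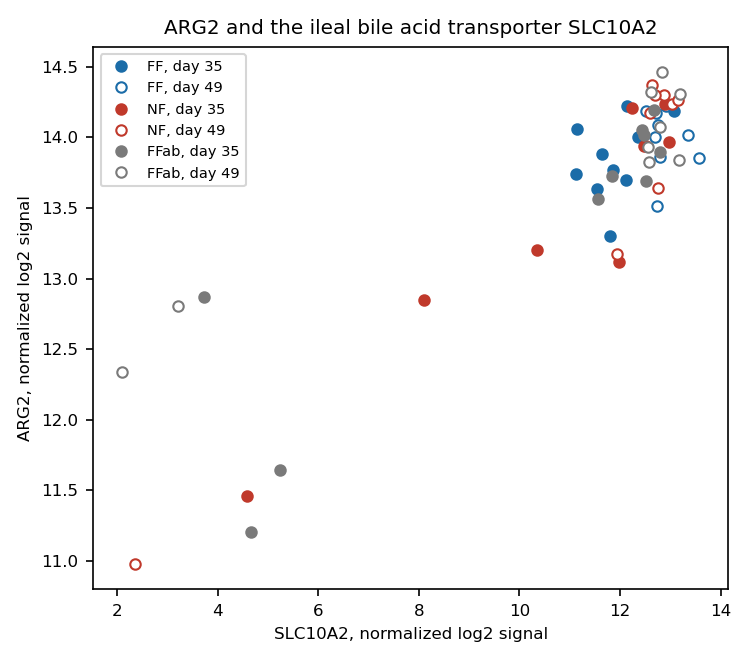
Normalized log2 signal of SLC10A2 (x axis) and ARG2 (y axis), 1 point per rabbit, by treatment and day. The 8 rabbits with SLC10A2 under 10 are the 8 with ARG2 under 13, and 0 of them are FF rabbits. ARG2 has no wide gap at 13, where its nearest values are 12.87 and 13.12.

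Whether treatments differed was tested directly. Between treatments, 0 of 7 members passed for the difference in age change of FF and NF, of FF and FFab, or of NF and FFab, nor did any of the 7960 genes (0%, 0% and 0%; 359, 227 and 73 at an unadjusted p under 0.05). Of the 21 differences of members, 1 had an unadjusted p under 0.05. The change of ASS1 was more negative in FF than in NF by -0.57 ± 0.28 (unadjusted p = 0.0479, adjusted p = 0.999). ASL differed by -0.24 ± 0.21 between FF and NF and by -0.36 ± 0.20 between FF and FFab. For ASS1 in FF against FFab, the difference of -0.24 had a 95% confidence interval of -0.80 to 0.32. That ASS1 and ASL passed in FF and not in the others is therefore not shown to set FF apart.

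At day 35, 0 of 7 members passed in FF minus NF (0.0377% of all genes did), in FF minus FFab (0.0126%) or in NF minus FFab (0%). At an unadjusted p under 0.05 there were 616, 485 and 162 genes. Among the members these were ASS1 in FF minus NF (0.41 ± 0.20, unadjusted p = 0.044, adjusted p = 0.628) and OTC, given above, in FF minus NF and FF minus FFab (unadjusted p = 0.0252 and 0.0247). At day 49, 0 of 7 passed in FF minus NF, FF minus FFab and NF minus FFab, with 0% of all genes in each (94, 186 and 145 genes at an unadjusted p under 0.05). ASL stood 0.40 ± 0.15 lower in FF than in FFab at day 49 (unadjusted p = 0.00881, adjusted p = 0.9998), and the median rabbit was at 10.25 in FF, 10.37 in NF and 10.62 in FFab. The ASS1 medians of day 49 were 11.61, 11.66 and 11.54.

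Within the groups, the enzymes varied together in part. Of the 21 pairs of members, with group means taken out, 10 had an adjusted p under 0.05 for Pearson r (100000 permutations of rabbits within groups, two-sided, adjusted over the 21 pairs). Before adjustment, the smallest p these permutations can give is 1e-05, which the r of CPS1 with ALDH18A1 and of ALDH18A1 with OAT reached. The share of other gene pairs that would pass was not computed, so the count is not shown to be particular to these enzymes. With group means taken out, the enterocyte marker mean itself had r of 0.83 with CPS1, 0.80 with ALDH18A1, 0.57 with ASL and 0.44 with OAT. It had r of 0.39 with OTC, 0.15 with ASS1 and -0.36 with ARG2. ASS1 and ASL had r of 0.52 (Spearman rho 0.44, adjusted p = 0.00315 and 0.00336), and 0.36 without the 2 rabbits farthest from the ASS1 median. Taken group by group, r ran from -0.07 in FF at day 49 to 0.71 in NF at day 49, where the rabbit highest for ASS1 was also highest for ASL. The closest pair was CPS1 and ALDH18A1, both mitochondrial and both early in the chain (r 0.69, rho 0.70, adjusted p = 1.05e-04 and 2.1e-04; 0.67 without the 2 farthest), followed by ALDH18A1 and OAT (r 0.64, rho 0.62, adjusted p = 1.05e-04 and 2.1e-04; 0.56 without the 2 farthest). CPS1 and OTC had r of 0.51 and rho of 0.47 (adjusted p = 0.00315 and 0.00336; r of 0.47 without the 2 farthest). ARG2 went against ASL (r -0.67, rho -0.46, adjusted p = 2.1e-04 and 0.00336, and r of -0.60 without the 2 farthest). In each NF and FFab group, the highest ASL value belonged to a rabbit among the 8 low in ARG2 and SLC10A2. These values were 11.41 and 11.66 in NF and 11.53 and 10.81 in FFab, at day 35 and day 49. The r of this pair without all 8 rabbits was not computed. ASS1 and OTC, neighbours in the chain that differed in direction with age, had r of 0.25 within groups (adjusted p = 0.105) and -0.16 when group means were kept.

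**Figure D4:**
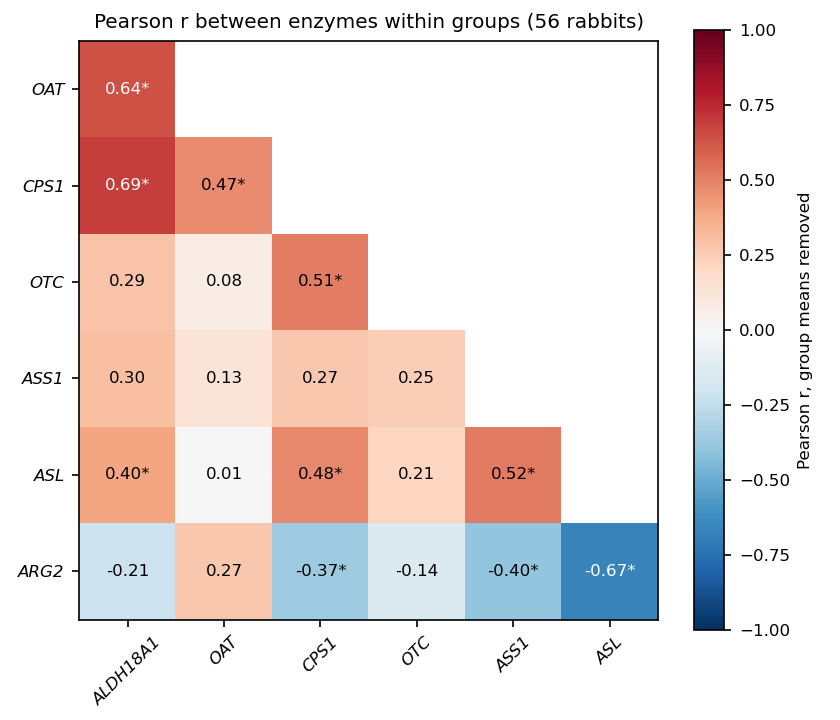
Pearson r between each pair of the 7 genes over 56 rabbits, after the mean of each group was taken out (colour and number). A star marks an adjusted p under 0.05, which 10 of 21 pairs had, the highest for CPS1 and ALDH18A1 at 0.69 and the lowest for ASL and ARG2 at -0.67.

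**Figure D5:**
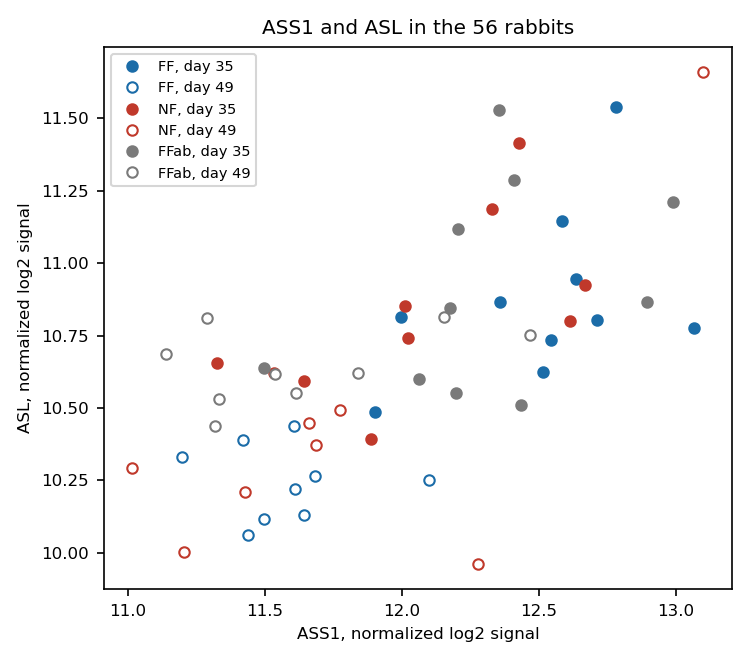
Normalized log2 signal of ASS1 (x axis) and ASL (y axis), 1 point per rabbit, by treatment and day. The open blue points, the 9 FF rabbits of day 49, lie at ASL of 10.44 or less, and the NF rabbit of day 49 that is highest for both genes stands at the top right (13.10 and 11.66).

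Among 7791 other genes measured on every array, ASL was the 10th most like ASS1 (r of 0.66 over the 56 rabbits, group means kept). Its rank was 16 with group means taken out, and 18 without the 2 rabbits farthest from the ASS1 median or with the deposited values. Among the 5 most alike were COMTD1 (r 0.74), ISCA2 (0.73), which serves the assembly of iron-sulfur clusters, IGF2BP3 (0.71), an RNA-binding protein of fetal tissues and GNL3 (0.71), a nucleolar protein. The 3 least alike were KCNA2 (-0.72), a potassium channel, IDO2 (-0.72), a tryptophan-degrading enzyme, and GPR15 (-0.70), a homing receptor of T cells. In the average of treatments IGF2BP3 (-1.46 ± 0.23) fell and KCNA2 (0.65 ± 0.11) and GPR15 (0.63 ± 0.16) rose, while COMTD1, ISCA2 and GNL3 (-0.28, -0.27 and -0.24) stayed short of the minimum fold change. The genes were picked by r with group means kept, so the age change of ASS1 enters the ranking. The directions of their age changes are therefore not separate evidence. With group means taken out, COMTD1, ISCA2, IGF2BP3 and GNL3 had r of 0.52 to 0.59, KCNA2 of -0.52 and GPR15 of -0.65. IDO2 was well above background on 3 of 29 arrays of day 35 and 20 of 27 of day 49, and passed the filter on dim probes through FF at day 49 (8 of 9), so its place in this order rests on values near background and no fold is given.

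Of the 41 measured genes that surround the pathway, 1 rose and 0 fell in the average of treatments, where 2.37% of all genes rose and 1.08% fell. Of the listed genes that feed citrulline with ammonia, glutamate and carriers, 11 of 21 were measured, and in the average of treatments 1 rose, 0 fell and 10 did not pass. CA5B, the mitochondrial carbonic anhydrase that supplies bicarbonate to CPS1, rose by 0.74 ± 0.20 on the log2 scale (adjusted p = 0.00776), but was well above background on only 43 of 56 arrays, from 5 of 10 in FFab at day 35 to 9 of 9 in FF at day 49. GLUL, which makes glutamine, changed by -0.21 ± 0.07 (adjusted p = 0.0458), and SIRT5, which acts on CPS1 in mice, by 0.13 ± 0.05 (adjusted p = 0.0719). The median of the 11 was -0.06, beside -0.005 for all genes. In FF 0 of the 11 passed, with CA5B at 1.03 ± 0.34 (adjusted p = 0.0526).

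Of 18 genes that use arginine or ornithine, 10 were measured and 0 passed in any of the age comparisons. PRMT1, which methylates arginine in proteins, had -0.22 ± 0.07 in the average (adjusted p = 0.0277), NOS2 and NOS3, the nitric oxide synthases of inflamed and endothelial cells, -0.26 ± 0.16 and -0.14 ± 0.11, and SAT1, of polyamine breakdown, 0.15 ± 0.10. Of 18 amino acid transporters 15 were measured, with 0 past the threshold and a median of 0.06. SLC7A9 and SLC3A1, which together form the cystine and dibasic amino acid transporter of the brush border, had 0.37 ± 0.13 (adjusted p = 0.0459) and 0.35 ± 0.14 (adjusted p = 0.0779). SLC38A2 had -0.17 ± 0.07, and SLC7A8, a basolateral exporter of neutral amino acids, -0.70 ± 0.33 (adjusted p = 0.169).

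Of 11 genes of the rodent switch at weaning, 5 were measured and 0 passed. SI, sucrase-isomaltase, which rises at weaning in rodents, ran from 14.58 through 15.32 to 16.63 in FF at day 35 and from 15.58 through 16.20 to 16.71 at day 49. Its averaged log2FC was 0.49 ± 0.14 (adjusted p = 0.0134), just short of 0.5. NR3C1, the glucocorticoid receptor, had 0.10 ± 0.05, and FBP1 and G6PC1, of glucose synthesis, 0.03 ± 0.14 and 0.07 ± 0.14.

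Markers of enterocytes changed in both directions in FF, with a negative log2FC in 4 of the 10 measured. In FF, of 10 measured of 17, ALPI (intestinal alkaline phosphatase), DPP4 and SLC5A1 (the glucose transporter) rose by 1.13, 0.83 and 0.80 on the log2 scale, TM4SF4 fell by 2.38 on that scale, and 6 did not pass. The mean of the list in each rabbit, each gene set to its own mean, ran from -0.69 to 0.60 at day 35 in FF and from -0.23 to 0.18 at day 49. Some markers of other cells passed. Of 4 red blood cell markers measured of 7, CA1 had a log2FC of -2.49 and EPOR of -2.22 in FF, both past the threshold, with a list mean of -0.54 to 2.07 at day 35 and -0.78 to -0.16 at day 49. Of 3 fat cell markers measured of 6, FABP4 and LPL rose by 1.71 and 1.68, with list means of -1.31 to 0.13 and 0.23 to 1.26. Of 3 B and plasma cell markers measured of 6, TNFRSF17 rose by 0.95 on the log2 scale in FF (adjusted p = 0.0264), with list means of -2.25 to 2.34 and -1.67 to 2.05. Over the 56 rabbits the red blood cell mean had r of 0.54 with ASS1 and 0.57 with ASL, which became 0.19 and 0.42 with group means taken out. The fat mean had r of -0.51 with ASS1 and -0.54 with ASL (-0.19 and -0.24 with group means taken out). The enteroendocrine mean had r of -0.34 and -0.51 (-0.33 and -0.47 with group means taken out). For ASL with group means taken out, r was -0.53 with the smooth muscle mean and 0.57 with the pancreas mean, the latter of 2 genes. Of 4 smooth muscle markers measured of 6, 0 passed in FF, NF or FFab. Their median log2FC was 0.57 in FF (0.34 to 0.77), -0.18 in NF (-0.29 to -0.16) and 0.12 in FFab (-0.16 to 0.22). The enterocyte mean had r of 0.05 with ASS1 and 0.41 with ASL (0.15 and 0.57 with group means taken out), and of 0.82 with CPS1 and 0.80 with ALDH18A1. The part of all these cells in the change of ASS1 and ASL was not tested.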

How the data were processed

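Ileal RNA of 57 rabbits was hybridized to Agilent 8 x 60K rabbit arrays, on 9 slides of 6 or 7 arrays, each slide with all groups. The authors deposited the scanner output of each array, in which the processed signal of each spot is a background-subtracted intensity, and 1 series-wide table with log2 values, normalized, of 33284 probes. Agilent Feature Extraction version 10.7.3.1 is named in the submitters' processing notes and 10.10.1.1 in the file headers. Flags for spots above background and outliers were taken from the deposited files. The deposited log2 table (same median, 8.78, in every array; r of 0.98 to 0.99 with the values used here) served as an alternative. Its normalization was by quantiles according to the study's methods, and whether background was subtracted is not given in the sources used here.

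Here, non-outlier spots of a probe were averaged, set to log2 and quantile normalized over 56 arrays. Dim probes were left out: 31722 of 42089 probes remained, those with 50% or more of their spots flagged above background on 75% or more of some group's arrays. Of the 42089 probes, 20540 were named: 11474 by accession, 8855 by gene identifier and 74 by gene name. The other 137 named probes, among them that of ASS1, took their names from the study's lists of genes that differed with age. A gene was read from its probe of median level. limma 3.58.1 (R 4.3.3) took the 56 arrays in 1 fit of 6 group means, with contrasts for age, for treatment at each day and for differences in age change. Unless said otherwise, errors are standard errors of the log2FC. The number of arrays, 9 or 10 a group, limits the precision.

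The members and gene lists were chosen with earlier results of these data known. Named genes are all members, listed genes that passed or, otherwise, up to 4 a list with the smallest p, and the 5 most and 3 least like ASS1. Genes related to ARG2 and named marker genes were chosen after their values were seen. Probes with no gene name entered no count. Some genes and probe sequences that these rules name are not reported here. Alternatives covered scaling, background, signal, probe choice, the filter on dim probes, slides as blocks, array weights, the arrays fitted, and each rabbit left out in turn. Coordinates are those of the array files (oryCun2).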

Additional observations from a re-analysis of the deposited data

Results flagged for a closer look

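Of the 42 combinations of 7 genes and 6 groups, 3 held a rabbit far from the rest of its group by Dixon's test, where chance gives about 1 in 20. ARG2 in NF at day 35 had a rabbit at 11.46, below the next at 12.85. ARG2 in NF at day 49 had a rabbit at 10.98, below the next at 13.17. ASL in NF at day 49 had a rabbit at 11.66, above the next at 10.62. The last 2 values belong to the same rabbit, which also had the lowest FABP6 signal of all 56 rabbits (7.88, against a median of 19.19 that lies near the highest value, 19.29). Of 21 differences in age change between treatments (7 genes, 3 differences), 0 passed.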

How the results depend on the processing

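No paired analysis was possible because each rabbit has a number of its own and the groups share none. Slides, which hold all groups, served as blocks instead. Each alternative changed 1 choice. ASS1 passed in the average and in FF, and ASL in FF, under every alternative fit and with any of the 56 rabbits left out (ASS1 -0.72 to -0.63 in the average and -0.9997 to -0.87 in FF, ASL -0.67 to -0.56 in FF). For ASS1, named through the study's lists of genes that changed in these data, passing again in refits of the same arrays is not independent support. Without a minimum fold change, 3 members passed in the average, where 13.5% of all genes did. Of the 14 probes, 5 then passed in the average and 5 in FF. Both times these were the probes of ASS1 and ASL and the 3 overlapping OTC probes, which read a single site. The share of all probes at any fold change is not given here. With the deposited normalized values 5 probes passed in FF, against 3, and 2 did with normexp, the median signal or the slide as a random block. In FFab 1 member, ASS1, passed with array weights (-0.80) and 0 to 1 when each rabbit was left out, the 1 without the FFab rabbit of day 49 with the highest ASS1 signal (-0.79). In NF it was also 0 to 1 (ASL, without the rabbit of day 49 highest for it). OTC in FF passed in 4 of 56 such fits (0.43 to 0.55, highest without the FF rabbit of day 35 with the highest OTC signal) and OAT in FF in 1 (-0.56 to -0.40).

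Signs turned only for members with small changes: CPS1 in FF (0.0125 with array weights, range with a rabbit left out -0.14 to 0.0348), CPS1 in NF (-0.0926 to 0.15) and in the average without the 8 rabbits low in SLC10A2 (0.0130), ALDH18A1 in the average (-0.0121 to 0.0485), in FF (-0.14 to 0.00964) and in NF (-0.00032 with all 57 arrays, range -0.0245 to 0.14), and OAT in NF (0.0328 with the 75th percentile, 0.0800 with all 57 arrays, 0.0372 with array weights, range -0.11 to 0.0657). The cause was not tested.

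Of all genes, 1.08% fell and 2.37% rose in the average, and 13.5% had an adjusted p under 0.05 at any fold change. Of the 41 surrounding genes measured, 1 passed in the average (CA5B). This became 6 without a minimum fold change, 2 with the 75th percentile, all 57 arrays, the mean of probes or array weights (CA5B and SI), 3 without the 8 rabbits low in SLC10A2 (SLC7A8 in addition), and 0 with normexp or when every array had to be above background, which drops CA5B. The count stayed at 1 with the deposited values and the median signal, but the gene was not CA5B (with the median signal it was SI). In FF 0 became 1 with the 75th percentile, the mean of probes or either slide block (CA5B) and with the deposited values (not CA5B), 2 without the 8 rabbits or on FF arrays alone (CA5B and SLC7A8) and 3 with array weights. The fit without the 8 rabbits and the counts with each rabbit left out were chosen after seeing the data. The count in the difference, day 35 and day 49 comparisons of members was 0 under every alternative run.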

Other observations

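The genes most like ARG2 over the 56 rabbits were looked at after its values had been seen. SLC25A48, a mitochondrial carrier, had r of 0.92, TMIGD1 of 0.92, GUCA2A, the hormone guanylin of the gut lining, of 0.91, SLC10A2 of 0.88 and SH3RF2 of 0.87. Spearman's rho was lower, from 0.49 for SH3RF2 to 0.81 for GUCA2A, and r with group means taken out ran from 0.86 to 0.92. At the other end stood ADA, adenosine deaminase (-0.86), SLC7A8 (-0.84) and TKT, transketolase (-0.83). Of these genes 0 passed for age in the average of treatments. SLC7A8 had a log2FC of -1.04 in FF, with adjusted p of 0.300 over all rabbits and 6.4e-04 without the 8 rabbits low in SLC10A2, a fit in which the FF rabbits are the same and the spread within the other groups is smaller.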
